A study of Mus musculus with 14 samples.

Results

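The genes of the NMDA receptor, an ion channel opened by glutamate, were followed across 6 groups of mice in the dorsal hippocampus. The family was taken as the rows of both count tables named Grin1, Grin2a, Grin2b, Grin2c, Grin2d, Grin3a and Grin3b, without regard to their values. All 7 genes were found in both tables, among 26570 genes listed in the basal table and 25933 in the learning table, and all 7 passed the filter on low counts in both experiments.

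RNA-seq had been performed on poly-A RNA of male C57BL6 mice aged 8 months, 14 libraries in all, to ask how tauopathy, spatial learning and a histone acetyltransferase activator alter hippocampal transcription. THY-Tau22 mice are heterozygous for a mutated human Tau transgene driven in neurons by the Thy1.2 promoter, and WT mice are their littermates without it. In the basal experiment, 3 WT and 2 THY-Tau22 libraries came from untrained mice. In the learning experiment, 3 WT VEH_HC libraries came from saline-injected WT mice kept in the home cage, 2 WT VEH libraries from saline-injected WT mice trained in the Morris water maze, 2 TAU VEH libraries from trained THY-Tau22 mice injected with the carrier CSP (carbon nanospheres), and 2 TAU MOL libraries from trained THY-Tau22 mice injected with CSP-TTK21, an activator of the acetyltransferases CBP and p300 bound to that carrier. Genotype and vehicle (saline or CSP) therefore change together between WT VEH and TAU VEH and cannot be told apart. The study counts each library as 1 mouse. Its authors left out further learning libraries, of mice from 1 litter, by a criterion set afterwards, and these were not analysed here.

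NMDA receptors are tetramers that need glutamate together with the coagonist glycine or D-serine, and that let calcium in once depolarization has driven magnesium out of the pore. Every receptor holds GluN1 (Grin1), joined by GluN2 subunits (Grin2a to Grin2d), which bind glutamate and set the channel's kinetics, or by GluN3 subunits (Grin3a, Grin3b), which bind glycine and lower calcium flow. In the adult hippocampus GluN2A and GluN2B are the main partners of GluN1 in excitatory neurons, and calcium entering through them starts long-term potentiation and depression.

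The members are related in sequence, which bears on how their reads are told apart. Between the coding sequences of any pair of members, taken from the NCBIM37 (mm9) annotation, the longest identical run was 34 bases, between Grin2b and Grin2c, followed by 32 bases between Grin2c and Grin2d, both shorter than the study's single-end reads. Within coding sequence, reads of the members could thus be told apart, and untranslated exons and mapping with mismatches were not examined. Reads of overlapping genes on the other strand could not be told apart, since the library kit does not mark strand. E130003G02Rik, antisense to Grin1, overlaps 1307 of the 9700 exonic bases of Grin1 and itself held 113 to 157 counts in the basal and 101 to 301 in the learning libraries. ORF61, antisense to Grin3b, overlaps 1059 of its 3296 exonic bases and held 2885 to 4786 and 3014 to 7381 counts, so that the few counts of Grin3b are uncertain. Overlaps were smaller for Grin2b (272 bases) and Grin2c (91 bases) and absent for Grin2a, Grin2d and Grin3a.

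The members also differ in features that matter for counting. Exon GC content was 42.6% for Grin3a, 51.1% for Grin2b, 51.3% for Grin2a, 56.3% for Grin1, 62.0% for Grin2c, 63.5% for Grin3b and 65.1% for Grin2d, against a median of 50.0% over the genes tested in each experiment. Grin2b and Grin2a are long genes, spanning 443686 and 417212 bases (chr6:135679844-136123529 and chr16:9577803-9995014). Grin1 (chr2:25146701-25174707), Grin2c (chr11:115110483-115128557) and Grin2d (chr7:53087253-53126298) span 28007, 18075 and 39046 bases. The annotated 3′ UTR was 117 bases for Grin2a, 2272 for Grin2b and 402 for Grin2c, and reads beyond an annotated end were not counted.

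The libraries held 28639121 to 37681155 counts in the basal and 24693713 to 52180305 in the learning experiment. Thy1, which shares its promoter with the transgene, was at 795 to 874 CPM (counts scaled to library size with TMM factors) in basal WT and 1842 to 2352 in basal THY-Tau22, and in the learning experiment at 786 to 913 in WT and 1805 to 2109 in THY-Tau22 mice, so that genotype labels and Thy1 went together. Mapt, the mouse Tau gene, lay between 530 and 642 in the basal and between 698 and 875 in the learning libraries. Markers of dentate gyrus, CA1, CA2 and CA3 neurons were all detected, and none of the marker genes measured was at 0 in any library. The 14 choroid plexus markers, a tissue next to the hippocampus, summed to 1592 to 2469 CPM in WT VEH, 78.04 to 238 in WT VEH_HC, 238 to 283 in TAU VEH and 716 to 780.0 in TAU MOL.

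Per kilobase of the longest coding transcript, Grin1 stood far above the other members in all 6 groups. In WT VEH it reached 163 ± 1.93 CPM per kb (mean ± SD, n = 2), ahead of Grin2c at 19.3 ± 0.19, Grin2a at 9.06 ± 0.66, Grin2b at 5.34 ± 0.89, Grin2d at 4.71 ± 0.18, Grin3a at 3.20 ± 0.32 and Grin3b at 0.077 ± 0.0059. Grin2b and Grin2d differed there by less than the SD of Grin2b. In basal WT the order was the same, with Grin1 at 112 ± 11.4, Grin2c at 12.5 ± 0.84, Grin2a at 5.59 ± 2.02, Grin2b at 4.84 ± 1.77, Grin2d at 4.14 ± 0.49, Grin3a at 2.89 ± 0.33 and Grin3b at 0.077 ± 0.027 CPM per kb (n = 3), and Grin2a, Grin2b and Grin2d were not separated beyond their SD. Levels per kb depend on the annotated ends given above, and their part in the order was not tested.

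**Figure D1:**
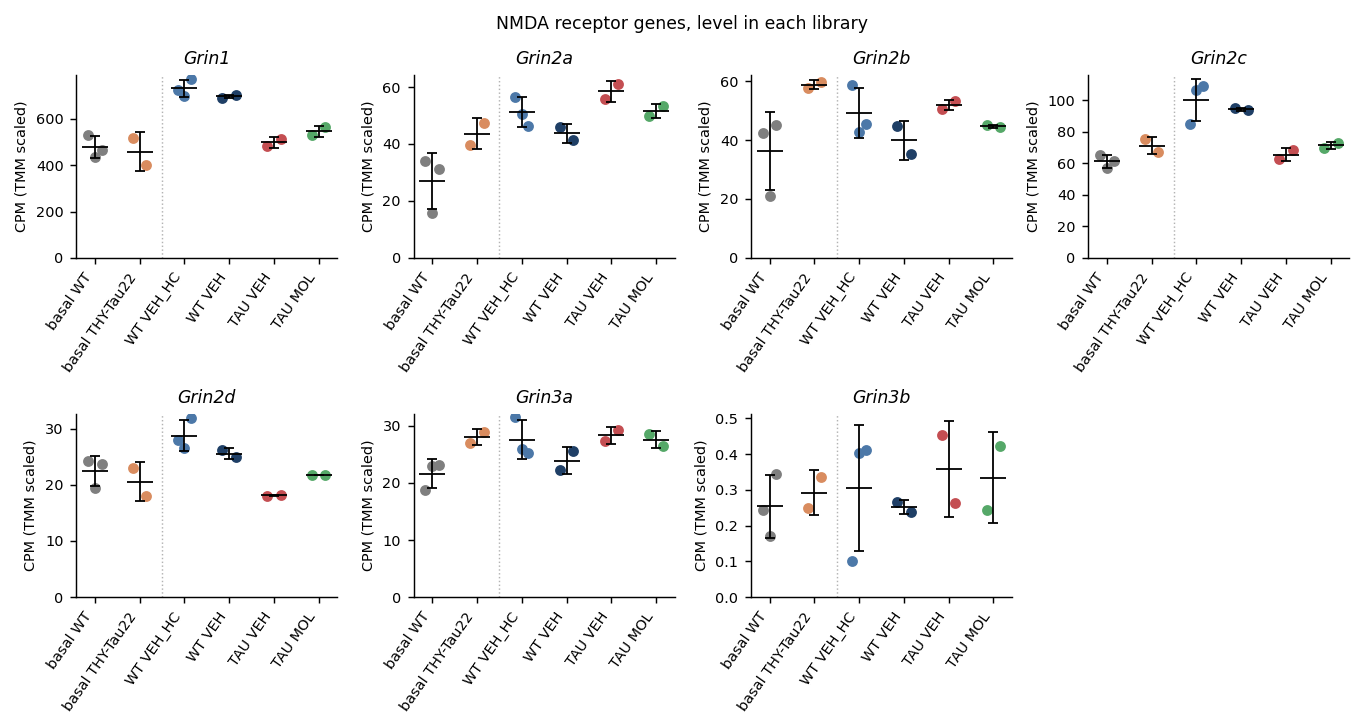
TMM-scaled CPM of the 7 NMDA receptor genes (y axis, from 0) in each of the 14 libraries by group (x axis). Points are libraries, horizontal marks with bars are the mean ± SD, and the dotted line parts the basal and learning tables, which were scaled separately. Grin1 lies at 482 to 564 CPM in the 4 trained THY-Tau22 libraries and at 691 to 772 in the 5 WT libraries of the learning experiment.

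The comparison of trained THY-Tau22 with trained WT mice asks how pathology bears on the transcriptome after learning. Grin1, Grin2c and Grin2d were lower and Grin2a was higher in TAU VEH than in WT VEH, so that 3 of 7 members were called lower and 1 higher (quasi-likelihood test of edgeR, Benjamini-Hochberg adjusted over 16820 genes, with an adjusted p below 0.05 and a log2 fold change beyond 0.2 in either direction). Of all genes tested, 10.8% were called lower and 3.61% higher. The libraries of the groups did not overlap for 6 members, whereas this was true of 57.9% of all genes tested. The median log2 fold change was 0.24 over the members and 0.00 over all genes, the members being split between lower and higher values. Scaling by library size alone shifted the median of all genes by 0.15 and called 2578 genes higher and 1020 lower, against 608 and 1815. Under it 3 members were called lower and 3 higher. Grin1, Grin2c and Grin2d stayed lower, at -0.34, -0.38 and -0.35, and Grin2b and Grin3a joined Grin2a among the higher ones (adjusted p = 0.0290 and 0.0402).

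Grin1, the subunit every receptor needs, was at 691 and 703 CPM in the WT VEH libraries and at 482 and 515 in the TAU VEH libraries. All TAU VEH values lay below all WT values of the learning experiment, home cage included, which ran from 691 to 772 CPM. The log2 fold change was -0.48 ± 0.07 (SE), with an adjusted p of 0.00148 by edgeR's quasi-likelihood test. The summed markers of excitatory neurons, the main site of Grin1, moved with it, at 14549 to 14749 CPM in WT VEH and 9840 to 10236 in TAU VEH, and those of CA1, at 974 to 1046 and 571 to 605, did so too. Neocortex markers shared this order, at 118 to 121 CPM in WT VEH and 87.0 to 102 in TAU VEH. Markers of CA2 and CA3 did not, being at 236 to 268 and 278 to 295. Dentate gyrus markers overlapped, at 371 to 393 and 384 to 427. Astrocyte markers were at 1215 to 1303 and 1545 to 1678. In bulk tissue, fewer cells of a type and less RNA per cell cannot be told apart.

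Among the GluN2 genes, Grin2a and Grin2b had the higher values in TAU VEH. Grin2a, whose subunit gives fast-decaying currents at mature synapses, was at 45.9 and 41.4 CPM in WT VEH and at 55.9 and 61.0 in TAU VEH, a log2 fold change of 0.42 ± 0.10 (adjusted p = 0.0153, edgeR). Grin2b, whose subunit prevails early in development and binds CaMKII, was at 44.7 and 35.3 CPM in WT VEH and at 50.7 and 53.1 in TAU VEH. Its libraries did not overlap either, but the log2 fold change of 0.38 ± 0.14 did not pass (adjusted p = 0.105, edgeR). Grin2b passed with DESeq2 (log2 fold change 0.39, adjusted p = 0.0285) and in 5 of the other alternatives. It was at 0.21 without WT VEH replicate 2 and at 0.56 without WT VEH replicate 1, not passing in either.

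Grin2c and Grin2d had the lower values. Grin2c, best known from cerebellar granule cells and in the forebrain from astrocytes and interneurons, was at 94.99 and 93.7 CPM in WT VEH and at 62.4 and 68.3 in TAU VEH. Its log2 fold change was -0.53 ± 0.11, the lowest of the 7 members (adjusted p = 0.00658, edgeR). Grin2d, whose subunit gives slow currents with weak magnesium block and is found in interneurons, was at 26.3 and 24.9 CPM in WT VEH and at 18.1 and 18.2 in TAU VEH, with a log2 fold change of -0.50 ± 0.09 (adjusted p = 0.00462, edgeR). Summed interneuron markers were at 798 to 838 CPM in WT VEH and 725 to 757 in TAU VEH. Astrocyte markers went the other way, at 1215 to 1303 and 1545 to 1678, and the part of either was not tested.

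The GluN3 genes did not pass with TMM scaling. Grin3a, an inhibitory subunit of immature synapses and some interneurons, was at 22.3 and 25.6 CPM in WT VEH and at 27.3 and 29.4 in TAU VEH, with a log2 fold change of 0.24 ± 0.11 (adjusted p = 0.195, edgeR) and of 0.15 without WT VEH replicate 1. Grin3b, known mainly from motor neurons, had 9 to 11 counts in WT VEH and 7 to 23 in TAU VEH. With so few counts its log2 fold change of 0.58 ± 0.58 left a 95% interval from -0.70 to 1.86, and a difference was not detectable at this depth. It was 0.061 without TAU VEH replicate 1 and 0.84 without TAU VEH replicate 2.

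**Figure D2:**
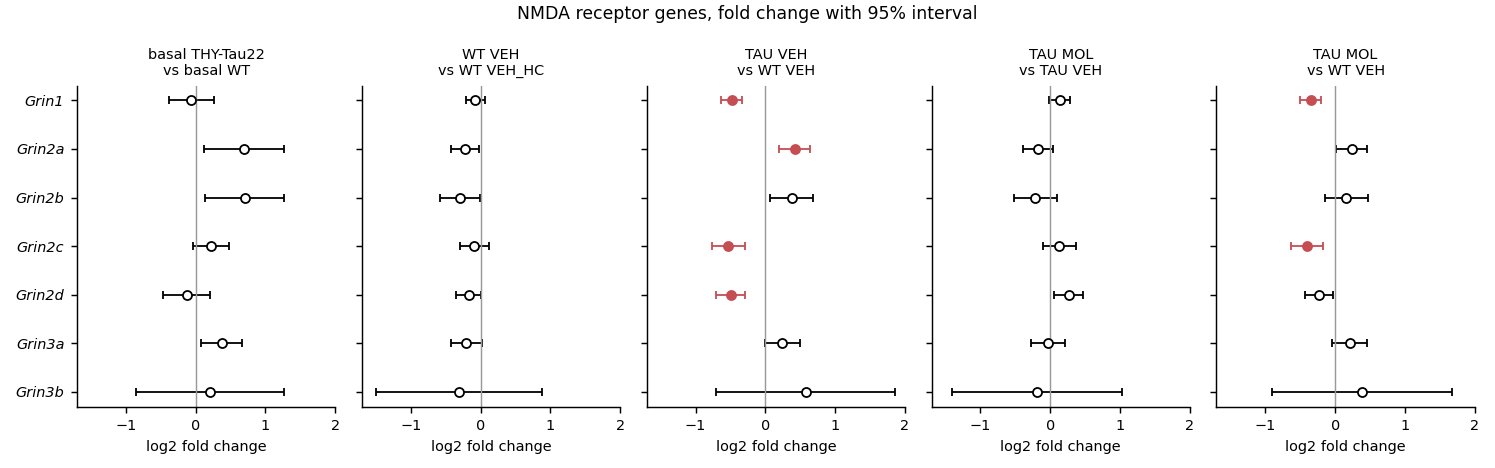
Log2 fold changes (x axis) of the 7 NMDA receptor genes (y axis) in the 5 comparisons, with 95% intervals from edgeR. Filled red points passed the call, which held for 4 genes in TAU VEH vs WT VEH and 2 in TAU MOL vs WT VEH.

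GC content moved with the calls against WT VEH, both among the members and among the libraries. Across 16780 genes, the Spearman correlation between exon GC content and a library's log2 ratio to the mean library ran from 0.085 to 0.45 in the 5 WT learning libraries and from -0.62 to -0.40 in the 4 THY-Tau22 libraries, each value describing 1 library. The 778 genes with a GC content of 60% or more, to which Grin2c, Grin2d and Grin3b belong, departed by a median of 0.12 to 0.24 log2 units in WT and by -0.27 to -0.14 in THY-Tau22 libraries. When GC content and length were corrected within each library, 1 member, Grin2a, was called in TAU VEH vs WT VEH, and over all genes 93 were called higher and 357 lower, against 608 and 1815. Its log2 fold change was 0.45 (adjusted p = 0.0271, edgeR), close to the uncorrected value. Grin1 then stood at -0.25 (adjusted p = 0.130) and Grin2c at -0.07 (adjusted p = 0.754), and Grin2d turned to 0.08 (adjusted p = 0.720). Grin3a, of the lowest GC content, was then at a mean log2 CPM of 4.67 in WT VEH and 4.71 in TAU VEH. GC content and genotype go together in these libraries, and how much of the lower values of Grin1, Grin2c and Grin2d belongs to either cannot be told apart.

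**Figure D3:**
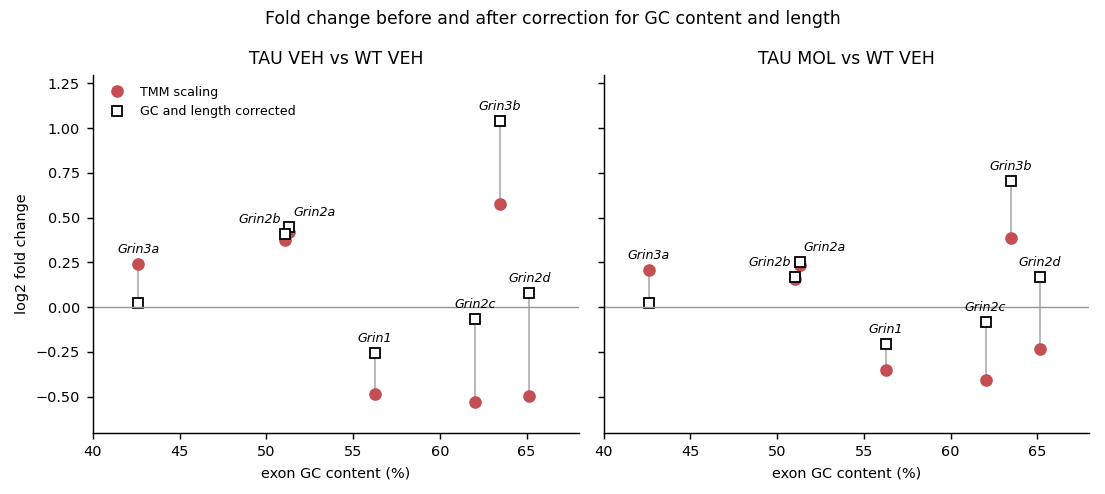
Log2 fold change (y axis) of the 7 members against their exon GC content in percent (x axis), with TMM scaling (red circles) and after correction for GC content and length in each library (open squares). Left, TAU VEH vs WT VEH; right, TAU MOL vs WT VEH. Grin2c and Grin2d, at 62.0% and 65.1%, moved from -0.53 to -0.07 and from -0.50 to 0.08 in the left panel, whereas Grin2a moved from 0.42 to 0.45.

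Choroid plexus markers also differed between these groups, and with their mean log2 level as a covariate 0 of 7 members were called. Markers and groups go together here, so that the fit cannot tell their parts apart. That fit called 0 of 16820 genes in all by edgeR, with 2360 at an unadjusted p under 0.05. Without TAU VEH replicate 1, which was the deeper of the pair, 1 member was called, Grin1 (log2 fold change -0.44, adjusted p = 0.0280). Over all genes 101 were then higher and 814 lower. Over the other libraries left out in turn, 3 to 5 members were called, with 153 to 838 of all genes higher and 1037 to 2106 lower. Grin2a was not called without WT VEH replicate 2 (adjusted p = 0.145), TAU VEH replicate 1 (0.0511) or TAU VEH replicate 2 (0.109), Grin2c not without WT VEH replicate 1 (0.0533) or TAU VEH replicate 1 (0.0834), and Grin2d not without TAU VEH replicate 1 (0.0511). Grin1 was called whichever of these 4 libraries was left out.

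Treatment with CSP-TTK21 is addressed by TAU MOL vs TAU VEH. None of the 7 members passed, against 0% higher and 0% lower over all genes by edgeR's quasi-likelihood test, while 1 member and 1064 genes had an unadjusted p under 0.05. DESeq2 called 0 members here, with 32 genes higher and 22 lower in all. The libraries did not overlap for 5 members and for 38.9% of all genes. The members' median log2 fold change was -0.04, beside 0.01 over all genes.

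Grin1 was at 531 and 564 CPM in TAU MOL, above the 482 and 515 of TAU VEH, with a log2 fold change of 0.14 and a 95% interval from -0.02 to 0.29. Grin2d, at 21.8 in both TAU MOL libraries and 18.1 and 18.2 in TAU VEH, had the largest absolute value of the 7 members, 0.27 with an interval from 0.06 to 0.47, and an adjusted p of 0.649 (edgeR). Interneuron markers moved with it, at 725 to 757 CPM in TAU VEH and 837 to 924 in TAU MOL, and their part in it was not tested. Grin2c was at 69.7 and 72.9 in TAU MOL, a log2 fold change of 0.13 (interval -0.11 to 0.36). In the treated mice these 3 genes lay between TAU VEH and WT VEH with TMM scaling, without passing the test against TAU VEH. With GC content and length corrected this held for Grin1, whereas Grin2d was at a mean log2 CPM of 4.50 in WT VEH, 4.58 in TAU VEH and 4.67 in TAU MOL, and Grin2c at 6.42, 6.35 and 6.34. Grin2a was at 49.7 and 53.2 CPM, a log2 fold change of -0.18 (interval -0.40 to 0.03), and Grin2b at 45.1 and 44.3, a log2 fold change of -0.22 (interval -0.52 to 0.09). Grin3a was at 28.6 and 26.5, overlapping TAU VEH, with a log2 fold change of -0.04 (interval -0.28 to 0.21). Grin3b had 11 to 17 counts and gave -0.19 (interval -1.40 to 1.02).

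Against WT VEH, the treated mice had 2 members called lower, Grin1 and Grin2c, and 0 higher, where edgeR called 5.02% of all genes lower and 0.612% higher and 4 members and 3324 genes had an unadjusted p under 0.05. This comparison shares its WT VEH libraries with TAU VEH vs WT VEH and its TAU MOL libraries with TAU MOL vs TAU VEH. Libraries did not overlap for 5 members and for 52.5% of all genes. DESeq2 called 0 members higher and 2 lower, and 264 and 1060 of all genes. Scaling by library size alone ended both calls, with 757 genes higher and 326 lower in all. So did the choroid plexus covariate, with 1 and 1.

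For Grin1 the log2 fold change was -0.35 ± 0.07 in TAU MOL (adjusted p = 0.0180, edgeR), beside -0.48 in TAU VEH. For Grin2c it was -0.40 ± 0.11 (adjusted p = 0.0484, edgeR), beside -0.53. The remaining members did not pass. Grin2d stood at -0.23 ± 0.09, Grin2a at 0.24 ± 0.10, Grin3a at 0.21 ± 0.11, Grin2b at 0.16 ± 0.14 and Grin3b at 0.39 ± 0.59. With TAU VEH replicate 1 or 2 left out, which enter the shared estimate of the spread, Grin2c was lost as well (adjusted p = 0.0717 and 0.0710) and Grin1 was called. Both calls were lost with the GC and length correction, where Grin1 was at -0.20 (adjusted p = 0.348) and Grin2c at -0.08 (adjusted p = 0.760). That correction left 9 genes higher and 15 lower in all, against 103 and 844. Fits without either WT VEH library or either TAU MOL library lost both calls together with nearly all calls over all genes. With each library left out in turn, Grin1 ran from -0.39 to -0.31 and Grin2c from -0.44 to -0.37. The excitatory neuron markers summed to 9686 to 10605 CPM in TAU MOL, again below WT VEH, and the CA1 markers to 829.5 to 836, between TAU VEH and WT VEH.

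Training itself was compared in WT mice, WT VEH vs WT VEH_HC. No member passed, by edgeR or by DESeq2. Of all genes, edgeR called 5.35% higher and 3.05% lower, and 2 members and 4683 genes had an unadjusted p under 0.05, while DESeq2 called 1111 genes higher and 734 lower. Libraries did not overlap for 2 members, Grin2a and Grin2d, and for 43.8% of all genes. All 7 log2 fold changes were below 0, with a median of -0.20 beside -0.00 over all genes. Dentate gyrus markers were at 422 to 585 CPM in WT VEH_HC and 371 to 393 in WT VEH, and CA2 and CA3 markers at 273 to 289 and 236 to 268, while CA1 and excitatory neuron markers overlapped, and their part in these values was not tested. Correction for GC content and length turned Grin1 to 0.10 and Grin2c to 0.01, and the choroid plexus covariate turned Grin2a to 0.03 and Grin3a to 0.23. Those markers part the same libraries as training does, summing to 1592 to 2469 CPM in WT VEH and 78.04 to 238 in WT VEH_HC. The covariate fit therefore cannot tell their part from that of training, and it called 0 genes in all. Without WT VEH_HC replicate 3, Grin2a was called lower (log2 fold change -0.29, adjusted p = 0.0400, edgeR). Over all genes 1799 were then higher and 999 lower, against 900 and 513. The replicate number as a block also called Grin2a lower (-0.29, adjusted p = 0.0441, edgeR), with 1892 of all genes higher and 1108 lower.

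Grin2b was at 58.7, 42.9 and 45.5 CPM in the home cage and 44.7 and 35.3 after training, a log2 fold change of -0.29 ± 0.13 (adjusted p = 0.165, edgeR) with overlapping libraries. It ranged from -0.13 without WT VEH replicate 2 and -0.14 without WT VEH_HC replicate 1 to -0.48 without WT VEH replicate 1. Grin2a was at 56.6, 50.5 and 46.3 and then at 45.9 and 41.4, a log2 fold change of -0.23 ± 0.09 (adjusted p = 0.131, edgeR), the groups lying next to each other without overlap. Grin2d, at 27.9, 26.5 and 31.9 and then 26.3 and 24.9, gave -0.17 ± 0.08. Grin3a was at 31.5, 26.0 and 25.3 and then at 22.3 and 25.6, a log2 fold change of -0.20 ± 0.10. Grin1, at 727, 701 and 772 CPM in the home cage, differed by -0.07 ± 0.06, and Grin2c, at 85.0, 107 and 109, by -0.09 ± 0.10. Trained and home-cage values overlapped for these 3 genes. Grin3b had 4 to 20 counts in the home cage. Single libraries moved these values. Without WT VEH_HC replicate 1 Grin2a was at -0.15, Grin3a at -0.10 and Grin2c at -0.19, and without WT VEH_HC replicate 3 Grin2d was at -0.088, Grin1 at -0.034 and Grin2c at -0.023.

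In untrained mice, basal THY-Tau22 vs basal WT, no member passed either, though alternatives given below called Grin2a and Grin2b higher. EdgeR called 0.00613% of all genes higher and 0.0184% lower, while 3 members and 803 genes had an unadjusted p under 0.05, and DESeq2 called 0 members and 27 genes higher and 14 lower. Libraries did not overlap for 4 members, all with higher values in THY-Tau22, and for 18.5% of all genes. The median log2 fold change was 0.22 over the members and -0.01 over all genes. In simulated counts of these libraries the share of changed genes found was 0.5% with edgeR and 32% with DESeq2 for a change of 0.5 log2 units, and 90.5% and 92.5% for a change of 1.

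Grin2a was at 34.0, 15.8 and 31.1 CPM in basal WT and at 39.7 and 47.4 in basal THY-Tau22, and Grin2b at 42.5, 21.004 and 45.1 and at 57.7 and 59.9. In both genes the lowest value by far was that of the second WT library. Their log2 fold changes were 0.69 ± 0.26 and 0.70 ± 0.26 (adjusted p = 0.901 for both, edgeR), and 0.44 and 0.44 without that library. With the replicate number as a block they were 0.89 and 0.97 and passed (adjusted p = 0.0363 and 0.00792, edgeR). Both also passed with every gene with at least 1 count kept (adjusted p = 0.0398 and 0.0323, edgeR). Over all genes the block called 25 higher and 12 lower and the latter 73 and 52, against 1 and 3. Genes spanning 150 kb or more, to which both and Grin3a belong, departed there by a median of -0.10 log2 units, the lowest of the 5 basal libraries. Grin3a was at 18.8, 23.0 and 23.2 and at 27.0 and 29.0 CPM, a log2 fold change of 0.37 ± 0.13 (adjusted p = 0.901, edgeR). With GC content and length corrected it was 0.20.

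Grin2c, at 65.4, 57.2 and 61.1 CPM in basal WT and 75.1 and 67.2 in basal THY-Tau22, was higher in both transgenic libraries than in any WT library, the reverse of its order after training. Its log2 fold change was 0.22 ± 0.12 (adjusted p = 0.901, edgeR). Grin1 overlapped, at 532, 437 and 467 and at 519 and 399.6 CPM, with a log2 fold change of -0.06 ± 0.15. Grin2d overlapped as well, at 24.3, 19.5 and 23.7 and at 23.0 and 18.1, with -0.13 ± 0.15, and Grin3b had 6 to 11 and 8 to 10 counts. Summed astrocyte markers were at 1547 to 1662 CPM in basal WT and 1841 to 2160 in basal THY-Tau22. They were also higher in TAU VEH (1545 to 1678 CPM) than in WT VEH (1215 to 1303), where Grin2c was lower. Their part in the Grin2c values was not tested. The THY-Tau22 libraries stood apart from each other in GC content, with Spearman correlations of 0.48 and -0.60.

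The balance of Grin2a and Grin2b, which shifts towards GluN2A as synapses mature, can be read within a library without scaling between libraries. The log2 ratio of their counts was 0.04 and 0.23 in WT VEH, 0.14 and 0.20 in TAU VEH, 0.14 and 0.26 in TAU MOL, and ran from -0.05 to 0.24 in WT VEH_HC. The groups overlapped in all 4 learning comparisons. The differences were 0.03 for TAU VEH vs WT VEH (exact permutation test, two-sided, p = 1), 0.03 for TAU MOL vs TAU VEH (exact p = 0.667), 0.07 for TAU MOL vs WT VEH (exact p = 0.667) and 0.07 for WT VEH vs WT VEH_HC (exact p = 0.6). In the basal experiment the difference was -0.02 (exact p = 0.8). These 5 tests are of one family, and the smallest p they could give was 0.333 with 2 against 2 and 0.2 with 3 against 2 libraries. No outcome of these tests could have passed. Each difference was smaller than the pooled SD of its libraries, which was 0.07 for TAU MOL vs TAU VEH, 0.10 for TAU VEH vs WT VEH, 0.11 for TAU MOL vs WT VEH, 0.15 for WT VEH vs WT VEH_HC and 0.12 in the basal experiment. The ratio lay lower in the basal table, from -0.54 to -0.32, and between the separately made tables no test was run.

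Of the summed GluN2 level per kb, Grin2a made up 23.6% ± 0.55 in WT VEH, 33.9% ± 0.35 in TAU VEH and 30.3% ± 0.68 in TAU MOL (n = 2 each). Grin2c made up 50.3% ± 2.03, 37.3% ± 0.47 and 41.3% ± 0.25. Grin2b made up 13.9% ± 1.63, 19.4% ± 0.38 and 17.0% ± 0.63, and Grin2d 12.3% ± 0.15, 9.35% ± 0.44 and 11.4% ± 0.31. The Grin1 level per kb was 4.25 ± 0.26, 3.26 ± 0.02 and 3.63 ± 0.06 times the summed GluN2 level in the same groups. None of these group ranges overlapped between TAU VEH and WT VEH, where 57.9% of all genes tested did not overlap either. The shares of a library add up to the whole and are not separate values. They carry the same GC dependence as the genes they are made of. They also depend on the annotated ends, with a 3′ UTR of 117 bases for Grin2a, 2272 for Grin2b and 402 for Grin2c, and this part was not tested.

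**Figure D4:**
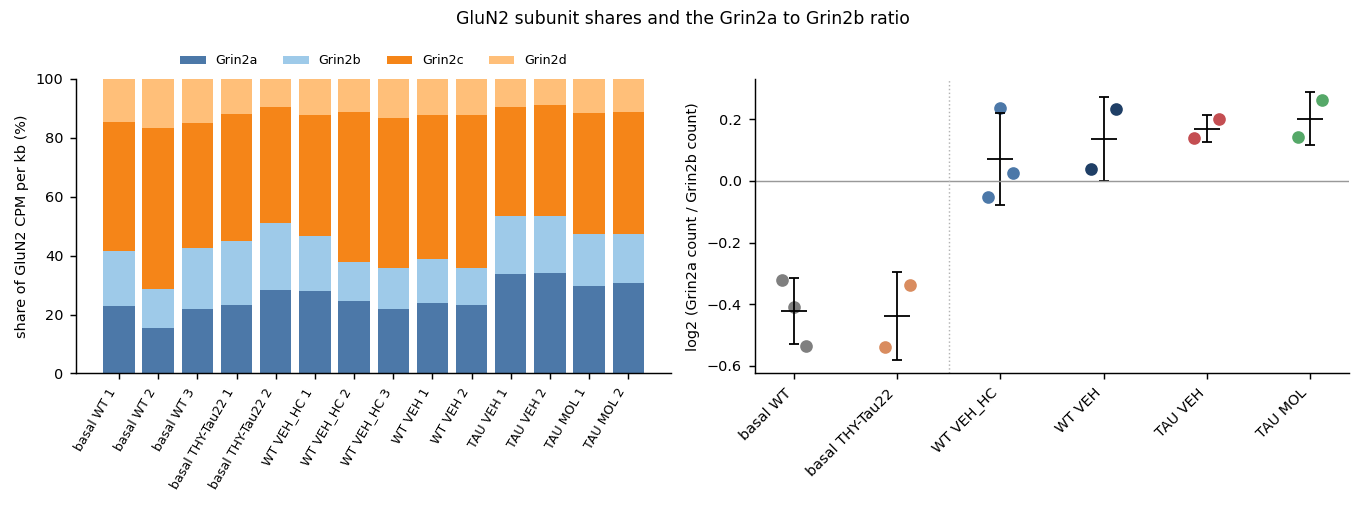
Left, share of each GluN2 gene in the summed GluN2 CPM per kb (y axis, percent) in each library (x axis). Right, log2 ratio of Grin2a to Grin2b counts (y axis) by group (x axis), points being libraries and bars the mean ± SD. Grin2c holds 50.3% in WT VEH and 37.3% in TAU VEH, while the ratio of Grin2a to Grin2b spans 0.04 to 0.23 and 0.14 to 0.20. Shares depend on the annotated transcript lengths and ends.

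Receptors work with partners, and 72 genes of 5 groups were followed beside them, of which 70 could be tested. In TAU VEH vs WT VEH, 5 rose and 17 fell, where 3.61% and 10.8% of all genes did, and with library size alone the split was 22 higher and 13 lower. Scaffolds and membrane partners held 7 of the genes that fell and 2 of those that rose, of 17 tested. Shank1, a master scaffold of the postsynaptic density, fell from 846 ± 84.6 to 476 ± 7.92 CPM (log2 fold change -0.83, adjusted p = 0.00167, edgeR), and Dlgap3, which links PSD-95 to Shank proteins, by 0.70 on the log2 scale (adjusted p = 0.00101). Dlg4, which encodes PSD-95 and anchors the tails of GluN2 subunits, fell from 1584 ± 21.7 to 1045 ± 21.5 CPM (log2 fold change -0.60, adjusted p = 0.00101). The genes that fell had an exon GC content of 52.2% to 63.9% and those that rose of 41.6% to 47.9%.

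Of 19 genes of calcium signalling below the receptor, 2 rose and 3 fell. Rasgrf2, an exchange factor for Ras that calcium activates, rose by a log2 fold change of 0.41 (adjusted p = 0.0196, edgeR) and Camk4, a nuclear kinase acting on CREB and CBP, by 0.38 (adjusted p = 0.00242). Camk2a, the kinase that binds GluN2B, fell by 0.55 on the log2 scale (adjusted p = 0.00186). Of 16 kinases and phosphatases acting on the receptor, 1 rose and 3 fell, of 9 trafficking genes 0 rose and 2 fell, and of 9 genes of coagonist supply 0 rose and 2 fell. Srr, the serine racemase that makes D-serine, was at 49.2 ± 3.08 in TAU VEH and 42.5 ± 1.46 CPM in WT VEH (adjusted p = 0.133, edgeR). Ptpn5, a phosphatase that removes GluN2B from the surface, was at 136 ± 1.23 and 154 ± 6.83 (adjusted p = 0.124). With GC content and length corrected, 0 of the 70 genes rose and 3 fell.

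Between TAU MOL and TAU VEH, 0 of the 70 rose and 0 fell by edgeR, and DESeq2 called 1 lower. Dlg4 had a log2 fold change of 0.15, Camk2a of 0.04, Srr of -0.16 and Ptpn5 of 0.10 there. Against WT VEH, 1 rose in TAU MOL and 13 fell (9 and 9 with library size alone), where 0.612% and 5.02% of all genes did. Camk2d, a CaMKII isoform, rose by a log2 fold change of 0.40 (adjusted p = 0.0354, edgeR), and 7 of the 13 were scaffolds, with Shank1 at -0.65 (adjusted p = 0.0146) and Dlgap3 at -0.58 (adjusted p = 0.00993). Dlg4 stood at -0.45 and Camk2a at -0.50, both called lower, and Srr at 0.05 and Ptpn5 at -0.08, not called. All 14 calls were lost with the GC and length correction, which left 9 genes higher and 15 lower in all, against 103 and 844. Fits without either WT VEH or either TAU MOL library lost them too, together with nearly all calls over all genes.

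After training in WT mice, 2 partner genes rose and 5 fell, of 70, where 5.35% and 3.05% of all genes did. Homer1, whose short form is induced by activity and uncouples the postsynaptic scaffold, rose from 61.7 ± 1.69 to 85.3 ± 6.30 CPM (log2 fold change 0.47, adjusted p = 0.0139, edgeR), and Lin7c, part of the complex that carries receptors along dendrites, by a log2 fold change of 0.44 (adjusted p = 0.0244). Nos1, the neuronal nitric oxide synthase tied to the receptor by PSD-95, fell by 0.48 on the log2 scale (adjusted p = 0.00747), and Actn2, which links GluN1 to actin, by 0.46 (adjusted p = 0.0380). Dlg4, Camk2a, Srr and Ptpn5 had log2 fold changes of -0.03, -0.01, -0.05 and -0.16 and did not pass. In the basal experiment 0 rose and 0 fell of 70, and these 4 genes lay between -0.06 and 0.07. Without WT VEH_HC replicate 3 the training count was 14, with 1799 of all genes higher and 999 lower, against 900 and 513. Without WT VEH replicate 1 these calls were lost together with most calls over all genes.

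For each member called in the learning experiment, the genes with the nearest profile were found by the smallest root mean square difference in centred log2 CPM over the 9 learning libraries. Those of Grin1 were Slc22a17, Atp13a2 and Rexo1 (0.029, 0.034 and 0.034, against a median of 0.31 over 16819 genes), which have exon GC contents of 60.8%, 59.5% and 60.0%. Those of Grin2d were Fscn1, 3110056O03Rik and Ccdc85c (0.038 to 0.052) and those of Grin2c were Zdhhc8, Rnf26 and Mef2d (0.053 each), with GC contents of 54.8% to 71.4%. Those of Grin2a were D10Bwg1379e, Vps13b and Herc1 (0.044 to 0.062), at 51.4%, 45.6% and 43.4%.

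CBP, the target of CSP-TTK21, is recruited by CREB to the cAMP response element, so that the 250 bases upstream of the start were searched on both strands. RefSeq (GRCm38.p6) gave a promoter for Grin1, Grin2c, Grin2d and Grin3b. The element TGACGTCA occurred in none of these 4 windows and in 1.55% of 32851 windows of the same length. Its short form TGACG, contained in the full element, occurred 2 times in Grin1, both near the start, and in 17.8% of all windows. The GC box GGGCGG occurred 3 times in Grin2c and in 32.7% of all windows. Both promoters are shown, since Grin1 and Grin2c were the members called in both comparisons with WT VEH, with capitals for TGACG (or its complement) and GGGCGG.
Grin1 promoter (minus strand, GRCm38.p6 chr2:25319188-25319437): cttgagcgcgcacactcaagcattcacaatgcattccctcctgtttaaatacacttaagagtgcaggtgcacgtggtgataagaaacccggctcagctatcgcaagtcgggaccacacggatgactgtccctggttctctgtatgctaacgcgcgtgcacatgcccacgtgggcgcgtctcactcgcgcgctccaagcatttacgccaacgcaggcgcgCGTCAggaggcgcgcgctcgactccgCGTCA
Grin2c promoter (minus strand, GRCm38.p6 chr11:115267244-115267493): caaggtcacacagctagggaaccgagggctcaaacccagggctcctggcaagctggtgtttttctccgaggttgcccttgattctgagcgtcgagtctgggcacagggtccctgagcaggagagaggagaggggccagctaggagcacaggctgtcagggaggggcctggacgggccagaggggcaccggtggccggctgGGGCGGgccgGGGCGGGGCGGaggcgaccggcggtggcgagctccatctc

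The Grin1 window had a GC content of 58.8% with 27 CpG and that of Grin2c 68.8% with 15, against medians of 52.4% and 6 over all windows. Grin2d (54.4%, 9 CpG) and Grin3b (46%, 2 CpG) held neither the short element nor the GC box. A match describes letters in the window and says nothing of binding.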

How the data were processed

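Per the labels and the study's methods, the authors made poly-A libraries from dorsal hippocampus, aligned single-end reads to mm9 with TopHat2 2.0.10 and Bowtie2 2.1.0 (base calls with CASAVA 1.8.2) and counted the uniquely mapped ones per Ensembl gene with HTSeq 0.5.4p3. The authors deposited these raw counts, used here, beside a normalized signal (counts divided by 1 factor per library), used only to check columns. Groups came from the sample titles, and 0 columns were left without a sample. The learning table also held 138 lines without values, which were left out.

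Counts were tested with edgeR 4.0.16 in R 4.3.3 (TMM, filterByExpr, quasi-likelihood test, Benjamini-Hochberg adjustment over all genes tested), and standard errors were taken from the fold change and the square root of its F statistic. A model held the 5 basal libraries and another all 9 learning libraries. A call needed an adjusted p below 0.05 with a log2 fold change beyond 0.2 in either direction, as in the study, whose own tool was an early DESeq2. The common coefficient of variation was 0.129 in the basal and 0.084 in the learning experiment, so the spread between libraries limits the members more than depth, Grin3b excepted. On simulated counts with 200 changed genes, edgeR found 44% of those changed by 0.5 log2 units and 92% of those changed by 1 in TAU VEH vs WT VEH.

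Alternatives were DESeq2 1.42.0, edgeR with DESeq2 size factors, scaling by library size only, every gene with at least 1 count, only the groups compared, the replicate number as a block, a loess correction for GC content and length (span 0.3, GC known for 99.8% of genes tested in each experiment), that correction with the block, a choroid plexus covariate, no limit on the fold change and leaving out each library. Leaving out libraries for the partner genes was added after seeing the data. The members, gene lists, named genes, tests and alternatives were chosen with earlier results of these data known. Named genes were all 7 members, the partner genes with the 2 largest increases and 2 largest decreases among those called, Srr, Dlg4, Camk2a and Ptpn5, Thy1 and Mapt, and 3 nearest profiles per called member. Overlapping antisense genes were named for their position. Ratios, profiles and figures used scipy 1.17.1, pandas 2.3.3, numpy 2.4.6 and matplotlib 3.10.9 under Python 3.11.15. Fold changes the authors deposited were not used, and their ChIP-seq was not analysed here. Coding sequence windows of the members are not reported here.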

Additional observations from a re-analysis of the deposited data

Results flagged for a closer look

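Grin2c lay in opposite directions in the 2 experiments. Its log2 fold change between THY-Tau22 and WT mice was 0.22 in the basal experiment, where both THY-Tau22 libraries (75.1 and 67.2 CPM) were above all 3 WT libraries (65.4, 57.2 and 61.1 CPM). It was -0.53 in TAU VEH vs WT VEH, where both THY-Tau22 libraries (62.4 and 68.3 CPM) were below both WT libraries (94.99 and 93.7 CPM). The difference between the experiments was not tested, the tables having been made separately, and the basal value did not pass on its own. With GC content and length corrected, the values were 0.28 and -0.07.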

How the results depend on the processing

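Causes of the changes below were not tested. The calls in TAU VEH vs WT VEH (4 members) were 5 with DESeq2, 6 with library size alone (3 higher and 3 lower) and from 1 to 5 with 1 library left out. They were 1 with the GC and length correction and 0 with the choroid plexus covariate. Those in TAU MOL vs WT VEH (2) were 1 with DESeq2 size factors, 0 with library size alone, 0 with the GC correction and 0 with the covariate. The covariate fit called 1 gene higher and 1 lower in all. Fits without a WT VEH or TAU MOL library lost these calls together with nearly all calls over all genes. In WT VEH vs WT VEH_HC (0) keeping every gene with at least 1 count called 1 member lower (Grin2b). Over all genes it called 1572 higher and 1114 lower, against 900 and 513. Leaving out WT VEH_HC replicate 3 called 1 (Grin2a), with 1799 and 999 over all genes. In the basal comparison (0) keeping every gene with at least 1 count called 2 higher (Grin2a, Grin2b), with 73 and 52 over all genes, against 1 and 3. No alternative called a member in TAU MOL vs TAU VEH.

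Partner genes called numbered 7 after training, 12 with DESeq2 and 4 with the GC correction. They numbered 14 without WT VEH_HC replicate 3, with 1799 of all genes higher and 999 lower, and fewer than 7 without any other library. In TAU VEH vs WT VEH they numbered 22, then 35 with library size alone (22 higher and 13 lower, against 5 and 17), 3 with the GC correction and 13 to 23 with libraries left out. In TAU MOL vs TAU VEH DESeq2 called 1 against 0, and in TAU MOL vs WT VEH the 14 became 0 with the GC correction and 0 to 18 with libraries left out. Library size alone moved the median of all genes by 0.15 in TAU VEH vs WT VEH, with 2578 genes higher and 1020 lower against 608 and 1815, and by 0.12 in TAU MOL vs WT VEH, with 757 higher and 326 lower against 103 and 844. Grin1, Grin2c and Grin2d stayed below 0 under it in both comparisons.

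Counts over all genes also moved. With the GC correction 93 genes were higher and 357 lower in TAU VEH vs WT VEH, 9 and 15 in TAU MOL vs WT VEH (103 and 844 reported), and 552 and 268 after training (900 and 513 reported). With the covariate 0 and 0 were called after training.

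With the replicate number as a block, 2 members (Grin2a, Grin2b) were called higher in the basal comparison, 1 (Grin2a) lower after training, and the calls in the 3 other comparisons were unchanged. Over all genes the block called 25 higher and 12 lower in the basal comparison (1 and 3 without it) and 1892 and 1108 after training (900 and 513 without it). Same-numbered libraries correlated from -0.16 to 0.24 in their deviations, so the numbers were not taken as pairs. Block and GC correction together left 1 member in TAU VEH vs WT VEH and 0 in TAU MOL vs WT VEH.

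Directions turned as follows. With the GC correction Grin2d came to 0.079 in TAU VEH vs WT VEH (0.076 with the block as well) and to 0.17 in TAU MOL vs WT VEH (0.17 with the block), Grin2c to -0.0137 in TAU MOL vs TAU VEH (-0.0137 with the block), and after training Grin1 to 0.10 (0.16 with the block), Grin2c to 0.011 (0.060 with the block) and Grin3b to 0.051 with the block. With the choroid plexus covariate Grin2a came to 0.025 and Grin3a to 0.23 after training, and Grin3a to -0.050 in TAU VEH vs WT VEH and 0.11 in TAU MOL vs TAU VEH. The covariate parts the groups in each of these comparisons, so these turns cannot be read as results of single members. With libraries left out, basal values ran from -0.24 to 0.12 for Grin1, -0.29 to 0.034 for Grin2d and -0.021 to 0.44 for Grin3b. In TAU MOL vs TAU VEH they ran from -0.092 to 0.020 for Grin3a and -0.61 to 0.33 for Grin3b, and in TAU MOL vs WT VEH from -0.00029 to 0.35 for Grin2b and -0.044 to 0.74 for Grin3b. The difference in the log2 ratio of Grin2a to Grin2b stayed within 1 SD of its reported value under every alternative run, but its sign was not stable. Without WT VEH replicate 1, for instance, WT VEH stood at 0.23, above the TAU VEH mean of 0.17.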
